A study of Rattus norvegicus and Bos taurus with 12 samples.

Results

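Troponin and tropomyosin are the regulatory proteins of the thin filament, and the 9 genes described here encode 5 troponin subunits (Tnnc1, Tnni3, Tnni1, Tnnt2 and Tnnt1) and 4 tropomyosins (Tpm1, Tpm2, Tpm3 and Tpm4). They were chosen by name, by matching gene symbols in any letter case. Of the 9, 7 were among the 7052 genes listed for adult rat ventricular myocytes (ARVM), and 1, TPM4, was among the 2115 genes listed for bovine cardiac fibroblasts (Cfib). Tnni1 and Tnnt1 were listed in neither table, so nothing is given for their level, and the slow-to-cardiac ratios of troponin I and troponin T could not be computed.

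The libraries came from 4 groups of 3. Freshly isolated ARVM, numbered 4, 5 and 6, were ventricular myocytes of adult Sprague Dawley rats taken by collagenase digestion. PH-CM ARVM, labelled ha2, ha209 and ha211, were such myocytes kept for 7 days in medium conditioned by right ventricular fibroblasts of calves with pulmonary hypertension (PH). CO Cfib and PH Cfib, each numbered 1 to 3, were low-passage right ventricular fibroblasts of control neonatal calves held at Denver altitude and of calves exposed to hypobaric hypoxia. The labels give the treatment of all 4 groups as cow serum, from low or from high altitude, and the groups are named here after the paper's account. The question for ARVM was how the myocyte transcriptome differs after PH-CM, a comparison in which the medium and the time in culture cannot be told apart. Both tables hold genes that had been selected for a difference between their groups, and the groups overlapped in none of them (100% of listed genes in each table). In what follows n counts libraries. Nothing in the labels says that the ARVM libraries came from separate animals, so p-values rest on the spread between these libraries. Selection for a difference favors genes with a small spread, and limma pools its variance over these same genes. Standard errors, intervals and p-values may therefore be too small.

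In the sarcomere, tropomyosin lies along the actin filament and covers the sites where myosin binds. Troponin C binds calcium, troponin I holds the filament in the inhibited state and troponin T ties the complex to tropomyosin. Cardiac muscle of the adult uses Tnnc1, Tnni3 and Tnnt2 with Tpm1 as its main tropomyosin, whereas Tnni1 and Tnnt1 are the slow skeletal forms. Tpm2 is prominent in slow skeletal and smooth muscle, Tpm3 encodes a slow skeletal form and several cytoskeletal forms, and Tpm4 is mostly cytoskeletal. Each Tpm gene gives rise to several spliced transcripts, and the deposited values do not separate them.

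In ARVM, the 3 cardiac troponin genes and Tpm1 fell and Tpm2, Tpm3 and Tpm4 rose after PH-CM. With limma and adjustment over all listed genes, 4 members passed the threshold of 0.05 as lower (43.7% of all listed genes did) and 3 as higher (53.9% of all listed genes did). The share called in either direction was 97.6% of listed genes, so that the calls themselves say little about the members, and the sizes are given below. The median log2 fold change was −2.38 over the 7 members and 0.37 over all listed genes. A log2 fold change of at least 1 together with the call was reached by 6 of the 7, all but Tpm3, against 48.3% of listed genes. On the recovered reads, edgeR called 96.6% and DESeq2 94.6% of listed genes in either direction, and both called all 7 members, 3 as higher and 4 as lower. Together the 7 genes took 3.67% ± 0.0425 (SD, n = 3) of the reads on listed genes in freshly isolated ARVM and 0.670% ± 0.0369 in PH-CM ARVM. In bulk RNA, fewer myocytes and less of a transcript per myocyte cannot be told apart.

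**Figure D1:**
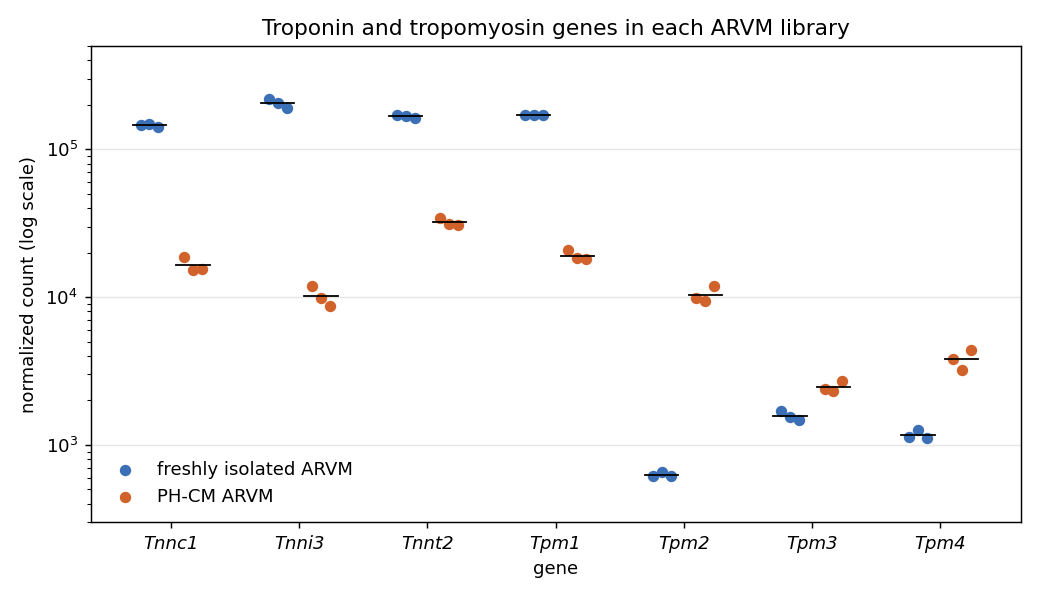
Normalized count (read count divided by the library's size factor, log axis) of the 7 listed members in each ARVM library, with 3 points per group and a black line at the group mean. Tnnc1, Tnni3, Tnnt2 and Tpm1 were lower in every PH-CM library and Tpm2, Tpm3 and Tpm4 higher, and heights may not be compared between genes because the values are not scaled by transcript length.

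Tnni3, which encodes cardiac troponin I, had the largest change of the troponins. Its normalized count was 219086, 206716 and 190801 in freshly isolated ARVM 4, 5 and 6, and 11865, 9785 and 8738 in PH-CM ARVM ha2, ha209 and ha211. Every PH-CM library thus lay far below every freshly isolated library, and the mean after PH-CM was 4.93% of that before. The log2 fold change was −4.35 (standard error 0.13, 95% interval −4.65 to −4.06, adjusted p = 1.20e-07 from limma). The transcript was still read deeply, with 10325 to 15689 reads per PH-CM library. By western blot the paper reports that dedifferentiated cells went on expressing troponin I, which is a measure of protein and not of RNA.

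Tnnc1, whose product is the calcium sensor of cardiac and slow skeletal muscle, had normalized counts of 146857, 148273 and 141576 in freshly isolated ARVM. In PH-CM ARVM the values were 18586, 15283 and 15454, of which that of library ha2 was the highest. The mean after PH-CM was 11.3% of that in freshly isolated cells, a log2 fold change of −3.15 (standard error 0.10, 95% interval −3.39 to −2.91, adjusted p = 1.87e-07 from limma).

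Tnnt2, which encodes cardiac troponin T, fell least of the 4 genes that were lower. It had 169869, 168045 and 163486 normalized counts in freshly isolated ARVM and 34309, 31232 and 30830 in PH-CM ARVM. The group means were 5.20-fold apart with a coefficient of variation of 1.97% and 5.92%, and 19.2% of the mean remained. The log2 fold change was −2.38 (standard error 0.10, 95% interval −2.61 to −2.15, adjusted p = 5.05e-07 from limma).

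Tpm1 had 171406, 171293 and 171463 normalized counts in freshly isolated ARVM and 20703, 18401 and 17969 in PH-CM ARVM. The freshly isolated libraries were closer to each other (coefficient of variation 0.0506%) than counting error alone would place them (0.268%), in a table whose genes had been selected for a small spread relative to the difference. The log2 fold change was −3.17 (standard error 0.09, 95% interval −3.39 to −2.95, adjusted p = 1.28e-07 from limma), so that 11.1% of the mean remained.

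Tpm2 moved the other way and had the largest rise of the members. Freshly isolated ARVM had 612, 653 and 620 normalized counts (387, 610 and 600 reads), and PH-CM ARVM had 9855, 9406 and 11919 (13032, 10902 and 14084 reads). The lowest PH-CM library was far above the highest freshly isolated library, and the means differed by 16.5-fold. The log2 fold change was 4.04 (standard error 0.09, 95% interval 3.83 to 4.25, adjusted p = 8.83e-08 from limma).

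Tpm4 had 1125, 1253 and 1122 normalized counts in freshly isolated ARVM and 3802, 3238 and 4413 in PH-CM ARVM, a 3.27-fold higher mean. Its log2 fold change was 1.70 (standard error 0.11, 95% interval 1.44 to 1.96, adjusted p = 4.97e-06 from limma). Tpm3 changed least, from 1697, 1537 and 1474 to 2393, 2304 and 2701 normalized counts. Its groups did not overlap, but the mean was only 1.57-fold higher, with a log2 fold change of 0.65 (standard error 0.08, 95% interval 0.46 to 0.84, adjusted p = 0.000176 from limma). Across the PH-CM libraries, ha211 had the highest and ha209 the lowest value of all 3 of these tropomyosins.

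The sequences before the start sites are shown for 3 genes that fell (Tpm1, Tnni3 and Tnnt2) and for Tpm2, the tropomyosin that rose most. They are the 250 bases before the start in RefSeq, build GRCr8, which is not the rn6 build of the deposited values, and capitals mark matches to the motifs searched on both strands. These are chr8:76543416-76543665 (minus strand) for Tpm1, chr5:62575727-62575976 (minus strand) for Tpm2, chr1:78342321-78342570 (plus strand) for Tnni3 and chr13:49818873-49819122 (plus strand), the more upstream of 2 windows, for Tnnt2.
Tpm1: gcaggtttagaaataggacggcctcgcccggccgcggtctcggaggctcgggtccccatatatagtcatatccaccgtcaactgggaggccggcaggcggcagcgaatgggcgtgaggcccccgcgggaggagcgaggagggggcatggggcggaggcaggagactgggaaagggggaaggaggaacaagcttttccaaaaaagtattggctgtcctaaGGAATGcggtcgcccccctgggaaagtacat
Tpm2: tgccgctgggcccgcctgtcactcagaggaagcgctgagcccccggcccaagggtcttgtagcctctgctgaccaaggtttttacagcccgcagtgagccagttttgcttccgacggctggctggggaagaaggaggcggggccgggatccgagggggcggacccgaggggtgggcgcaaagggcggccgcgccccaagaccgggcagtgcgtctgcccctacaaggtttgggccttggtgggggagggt
Tnni3: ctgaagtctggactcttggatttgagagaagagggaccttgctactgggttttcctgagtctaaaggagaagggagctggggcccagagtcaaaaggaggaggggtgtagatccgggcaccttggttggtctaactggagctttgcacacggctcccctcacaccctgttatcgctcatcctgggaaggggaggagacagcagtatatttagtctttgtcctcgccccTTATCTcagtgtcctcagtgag
Tnnt2: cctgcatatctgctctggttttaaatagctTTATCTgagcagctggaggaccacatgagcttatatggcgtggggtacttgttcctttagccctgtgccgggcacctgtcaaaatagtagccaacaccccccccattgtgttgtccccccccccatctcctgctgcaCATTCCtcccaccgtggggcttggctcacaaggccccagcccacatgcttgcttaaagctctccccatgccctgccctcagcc

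Motifs known from muscle promoters were searched. These were the MCAT element, spelled GGAATG, the binding motif of GATA factors, spelled AGATAA, the CArG box and the MEF2 site. The general TATA motif was searched as TATAAA. The Tpm1 window held the MCAT element, beginning 31 bases before the start, and the Tnnt2 window held it beginning 83 bases before the start. Of all 33469 windows of this length in the table, 12.1% held it. The GATA motif was found in the Tnni3 window, beginning 22 bases before the start, and in the Tnnt2 window, beginning 220 bases before the start, and in 10.3% of all windows. No match overlapped another, and the Tpm2 window held none of the 5 motifs, which says only that these letters are not in that stretch. The CArG box, present in 1.5% of all windows, the MEF2 site, in 2.96%, and the TATA motif, in 12.9%, were found in none of the 4. RefSeq holds a window for 8 of the 9 members. Among windows not shown, the first of 3 for Tpm3, which rose, held the GATA motif beginning 32 bases before the start. The second Tnnt2 window and the Tpm4 window held none of the 5 motifs. The motifs were thus not confined to genes that fell. In the same annotation Tnni3 and Tnnt1 are neighbors, and Tnni1 and Tnnt2 have Lad1 between them.

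To compare the members with each other, ratios of 2 genes were formed within each library, where the size factor cancels. Both genes were listed for 8 of the 10 ratios planned. In all 8 the groups did not overlap, and the exact permutation test gave p = 0.1 (two-sided, adjusted p = 0.1 over the 8 ratios), which is the smallest value that 3 libraries against 3 can give and does not pass the threshold. The groups did not overlap in 100% of single listed genes either, and the share over all pairs of listed genes was not computed. A ratio of reads is no ratio of molecules, since the values are not scaled by length, but its change between groups does not depend on length as long as the spliced forms keep their lengths.

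The largest differences in proportion were among the tropomyosin genes. Of the reads of the 4 Tpm genes, Tpm1 held 98.1% ± 0.0731 (SD, n = 3) in freshly isolated ARVM and 53.4% ± 4.19 in PH-CM ARVM, where it ran from 48.6% in library ha211 to 56.3% in library ha2. The share of Tpm2 went from 0.360% ± 0.0125 to 29.1% ± 2.80, with 32.2% in library ha211 as the highest. The share of Tpm4 went from 0.668% ± 0.0429 to 10.7% ± 1.14. That of Tpm3 went from 0.898% ± 0.0652 to 6.91% ± 0.394. These shares rest on 110478 to 169094 reads per freshly isolated library and 38654 to 48600 per PH-CM library.

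As ratios, Tpm2 to Tpm1 went from 0.00367 ± 0.000129 (SD, n = 3) to 0.550 ± 0.0996, a difference of 7.21 on the log2 scale. Tpm4 to Tpm1 differed by 4.87 and Tpm3 to Tpm1 by 3.82 on that scale. The ratio of Tpm4 to Tpm3 went from 0.747 ± 0.0771 to 1.54 ± 0.121, a log2 difference of 1.05. The summed normalized count of the 4 genes was 174752 ± 81.5 (SD, n = 3) before and 35701 ± 2041 after PH-CM, so the rises did not make up in reads for the fall of Tpm1.

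**Figure D2:**
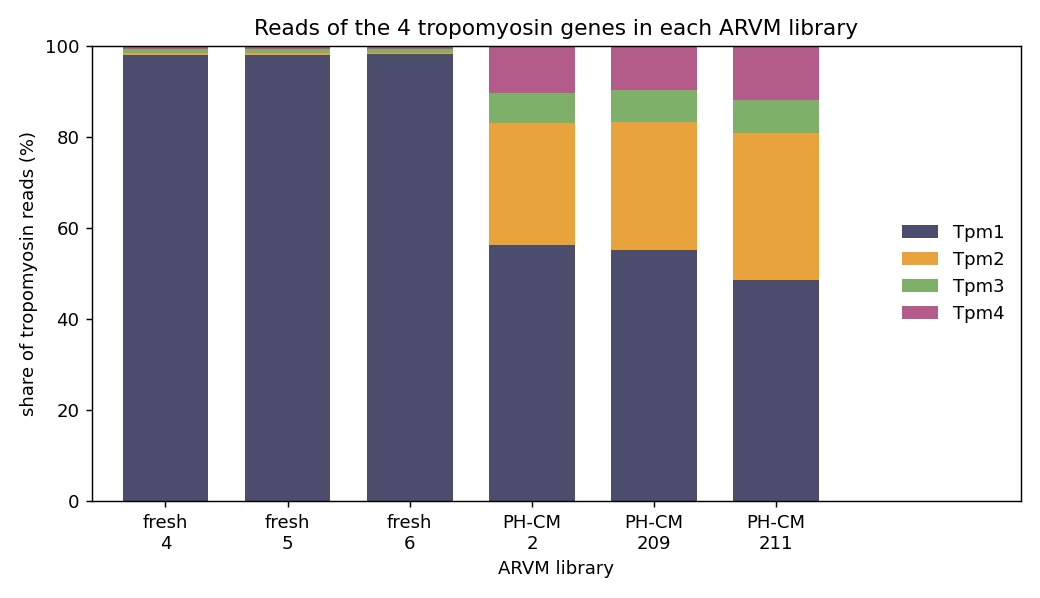
Share (%) of each of the 4 tropomyosin genes in the reads of all 4, in 1 stacked bar per ARVM library, for the 3 freshly isolated (fresh) and 3 PH-CM libraries. Tpm1 held at least 98.0% in each freshly isolated library and between 48.6% and 56.3% in the PH-CM libraries, where Tpm2 held 26.8% to 32.2%.

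The troponin genes encode subunits that stand in equal number in the complex, and their changes differed in size. The ratio of Tnni3 to Tnnt2 was 1.29, 1.23 and 1.17 in freshly isolated ARVM 4, 5 and 6 and 0.346, 0.313 and 0.283 in PH-CM ARVM ha2, ha209 and ha211. Its log2 difference was −1.97, so that Tnni3 fell 3.92-fold more than Tnnt2. The ratio of Tnnc1 to Tnni3 went from 0.710 ± 0.0364 (SD, n = 3) to 1.63 ± 0.118, a log2 difference of 1.20. The ratio of Tnnc1 to Tnnt2 went from 0.871 ± 0.00989 to 0.511 ± 0.0275, a log2 difference of −0.77. That of Tpm1 to Tnnt2 went from 1.03 ± 0.0206 to 0.592 ± 0.0105, a log2 difference of −0.79. Tnnc1 and Tpm1 thus had nearly the same log2 fold change, with Tnnt2 above and Tnni3 below them.

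**Figure D3:**
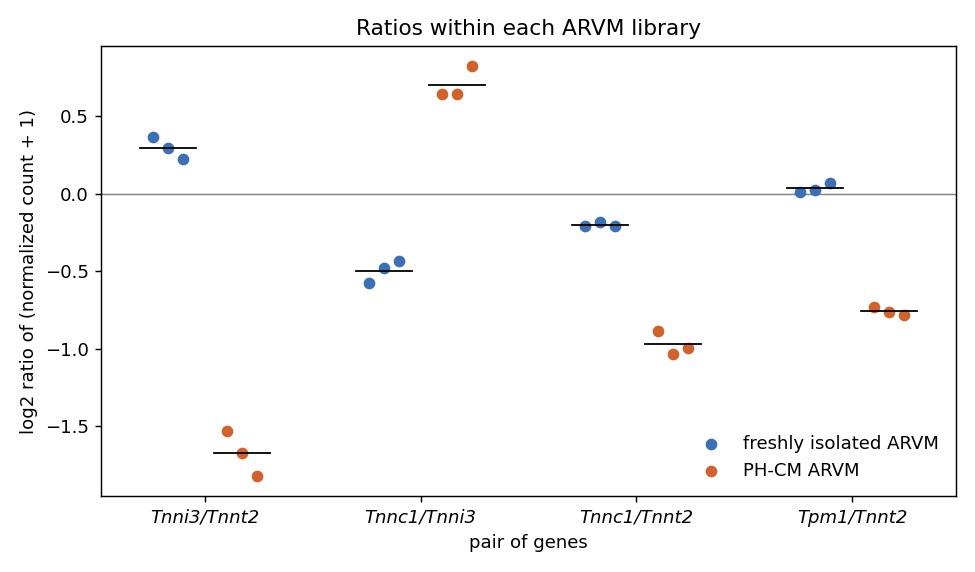
Log2 ratio of (normalized count + 1) of pairs of thin filament genes within each ARVM library, with 3 points per group and a black line at the group mean. The groups do not overlap in any of the 4 pairs, and the widest shift, from a mean of 0.30 to −1.67, is that of Tnni3 to Tnnt2.

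Other genes of the cardiac myocyte fell as well, and the members were set beside them. All 11 listed cardiomyocyte markers (of 12) passed the limma threshold as lower (43.7% of all listed genes did). Their median log2 fold change was −2.73, and their summed normalized count was 1370380 to 1382830 before and 91790 to 112371 after PH-CM. Their changes ran from −0.66 for Pln, the regulator of the calcium pump, to −6.62 for Mb, the oxygen-binding protein of muscle. The mean log2 level of these 11 markers differed by −3.50 between the groups. Relative to that mean, Tnnt2 was 1.12 higher after PH-CM on the log2 scale, Tnnc1 0.34 and Tpm1 0.32 higher, and Tnni3 was −0.86 apart, that is lower. Tpm2 stood 7.53, Tpm4 5.20 and Tpm3 4.15 higher on the same scale. For each of the 7 the groups did not overlap, and the exact permutation test gave p = 0.1 (two-sided, adjusted p = 0.1), again the smallest possible. The share of all listed genes without overlap on this scale was not computed. With the median marker level of each library as the reference, Tnnc1 stood 0.41 and Tpm1 0.39 higher. Against the median of the marker changes, −2.73, Tnnc1 (−3.15) and Tpm1 (−3.17) fell more. Whether Tnnc1 and Tpm1 fell less than the markers thus depends on how the markers are summarized.

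**Figure D4:**
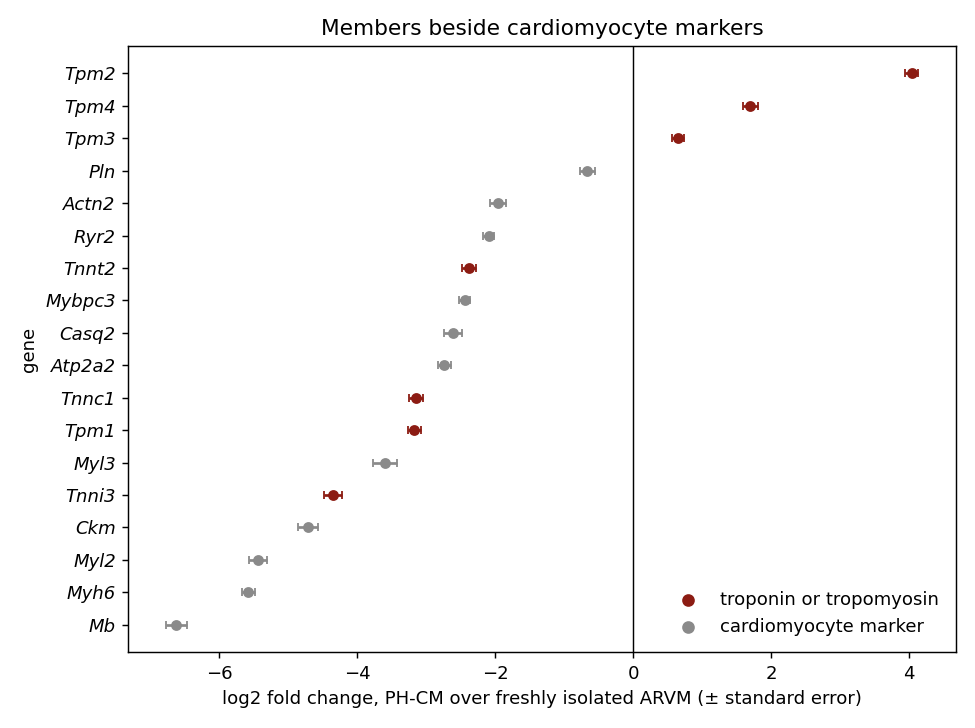
Log2 fold change (PH-CM over freshly isolated ARVM, limma, bars give the standard error) of the 7 listed members (red) and 11 cardiomyocyte markers (grey), ordered by size. The members that fell lie among the markers, between Ryr2 at −2.10 and Ckm at −4.71, and the other 3 tropomyosins lie above 0.

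Markers of other cell types were higher or lower according to the type. The lists include Acta2 and Postn, whose products the paper reports in the dedifferentiated myocytes themselves. Of all listed genes, 53.9% were called higher and 43.7% lower. All 10 listed fibroblast markers passed the limma threshold as higher (summed normalized counts of 1533 to 2062 before and 87479 to 130631 after PH-CM). In freshly isolated cells, 2 of the 10 had at most 10 reads in every library. Of 8 smooth muscle and pericyte markers, 7 were called higher and 1 lower (Rgs5), with sums of 2915 to 3787 and 32105 to 51044. All 7 macrophage markers were called higher (sums of 213 to 320 and 7049 to 10594), and all 6 endothelial markers lower (sums of 7775 to 9117 and 2753 to 3189). The 2 listed erythrocyte genes of 3, Hbb and Hba1, had no read after PH-CM, against sums of 1941 to 2315 before. Among the PH-CM libraries, the sums of fibroblast, smooth muscle and macrophage markers were all highest in ha211 and lowest in ha209, the same order as for Tpm2, Tpm3 and Tpm4. The sums of the thin filament partners and of the splicing factors described below had that order too, so it was not particular to these markers. The part of these cell types in the rise of Tpm2, Tpm3 and Tpm4, and in the fall of the troponins and Tpm1, was not tested.

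Thin filament partners, which are other troponins, actins and proteins that bind or cap the filament, were split between the directions. Of 28 genes, 22 were listed for ARVM, and 11 passed the limma threshold as higher and 11 as lower (53.9% and 43.7% of all listed genes did). The median of their log2 fold changes was 0.02. The sarcomeric actins were lower. Acta1 had 40022 ± 5217 normalized counts (SD, n = 3) before and 804 ± 242 after PH-CM, which is −5.67 on the log2 scale, and Actc1 had −1.89. The tropomodulins and leiomodin of striated muscle, which cap or seed the slow end of the filament, were lower as well, with −1.22 for Tmod1, −3.18 for Tmod4 and −2.52 for Lmod2.

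The actins and actin-binding proteins of smooth muscle were higher. Actg2 went from 6.50 ± 1.38 (SD, n = 3) to 1712 ± 300.1 normalized counts (log2 fold change 7.84). Acta2 went from 293 ± 17.5 to 10007 ± 1947 (5.07), Cnn1, a calponin, from 3.86 ± 3.41 to 432 ± 67.0 (6.91) and Lmod1, the smooth muscle leiomodin, had a log2 fold change of 4.69. Cald1, a caldesmon that binds tropomyosin on non-striated filaments, had 3.27. The rise was not confined to smooth muscle genes, since Actb (2.11), Actg1 (1.83), Cnn3 (1.97), Cfl1 (0.96) and Dstn (0.52) were higher too. Among the 11 partners called lower was Tmod3 (−0.48). No read of the fast skeletal Tnnt3 was counted before PH-CM and 10.1 ± 0.793 normalized counts after it, at least 8.54-fold higher against 3 reads over the group. RefSeq holds the name Tnnt3 both for this gene and as a synonym of Tnnt2, so its value is uncertain. Its fast partners Tnni2 and Tnnc2 were not listed. The partners named beyond Acta1, Actg2, Acta2 and Cnn1 were chosen after their values were seen.

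**Figure D5:**
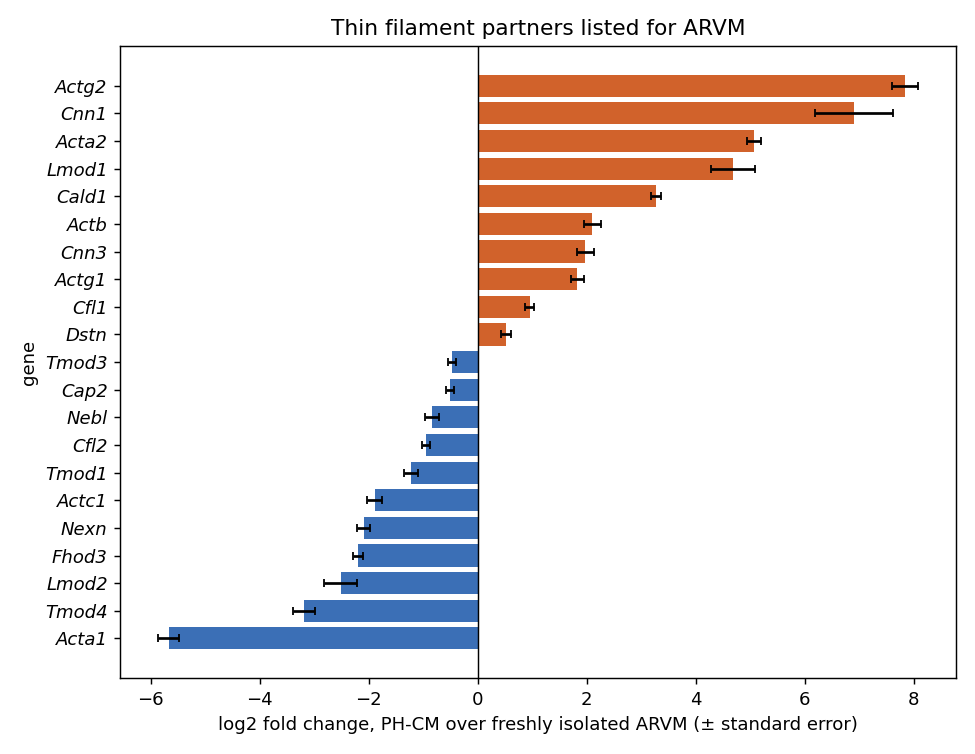
Log2 fold change (PH-CM over freshly isolated ARVM, limma, bars give the standard error) of the listed thin filament partners, leaving out Tnnt3, which had no read before PH-CM. The 10 orange bars are genes with a higher and the 11 blue bars genes with a lower value in PH-CM ARVM, from −5.67 for Acta1 to 7.84 for Actg2.

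The splicing factors examined were mostly lower. Of 12 genes, 9 were listed, and 2 passed the limma threshold as higher and 6 as lower (53.9% and 43.7% of all listed genes did). The share called, 8 of the 9, was near the 97.6% of all listed genes, and the median of their log2 fold changes was −0.45. Rbfox1 had the largest change, with 1801 ± 231 normalized counts (SD, n = 3) before and 383 ± 30.3 after PH-CM, or −2.23 on the log2 scale. Rbm20, which acts on titin and other sarcomere transcripts, had −0.95, and Ptbp2 had −0.74. Ptbp1, a repressor of muscle exons, was higher at 0.64. Celf2 did not pass (log2 fold change 0.41, adjusted p = 0.0543 from limma), but was called when genes with a mean under 50 were dropped (adjusted p = 0.0406), with eBayes without a trend (0.0259) and without freshly isolated library 4 (0.0480). Whether the spliced forms of Tnnt2 or Tpm1 changed cannot be read from values per gene.

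The genes whose pattern over the 6 ARVM libraries was nearest to that of a member were found by the root mean square distance of centered log2 values. Tnnc1 and Tpm1 were nearest to each other among all listed genes with a named symbol, at 0.0401, followed for both by Oxct1, an enzyme of ketone body use. Tnni3 was nearest to Fabp3, the fatty acid binding protein of heart, at 0.0660. Among the genes near Tnnt2 were Mybpc3, the cardiac myosin binding protein C (0.0444), and Atp5a1, a subunit of the mitochondrial ATP synthase (0.0505). Tpm2 was nearest to C1r (0.0691), Tpm4 to Fcgrt (0.0560) and Tpm3 to Snap23 (0.0391). Since each listed gene separates the groups, these distances mostly reflect the size of the fold change.

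In Cfib, TPM4 was the only listed member. Its deposited value (scaled for library and length) was 764, 830 and 793 in CO Cfib 1, 2 and 3 and 586, 630 and 654 in PH Cfib 1, 2 and 3. The PH libraries were all lower, by 21.6% in the mean. The log2 fold change was −0.35 (standard error 0.09, 95% interval −0.56 to −0.14, adjusted p = 0.00757 from limma), where 39.4% of listed genes were called lower, 97.5% were called in either direction, 34% with a log2 fold change of at least 1, and the median over all listed genes was 0.33. Scaling the libraries by their median of ratios instead shifted the log2 fold changes of all genes by a median of −0.27 and gave −0.64 for TPM4. With the 3 PH libraries averaged into 1 sample, the log2 fold change was −0.35 and the call was lost, with fewer samples in the fit. The paper states that fibroblasts of 3 animals per group were sequenced, and this setting treats those of PH as 1. The nearest patterns over the 6 Cfib libraries were those of GFM2 (0.0245), TBK1 (0.0262) and EXOSC2 (0.0295).

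The other thin filament genes of Cfib had mixed directions. Of the 28 partners, 5 were listed, and all passed the limma threshold (97.5% of listed genes did). ACTA2 was higher, at 86.6 ± 20.3 (SD, n = 3) in CO and 202 ± 6.09 in PH Cfib (1.23 on the log2 scale), as was LMOD1 (0.49), in a table where 58.2% of genes were called higher. The calponins were lower, with log2 fold changes of −0.68 for CNN1, −0.57 for CNN2 and −0.56 for CNN3. Of the splicing factors, SRSF1 was the only one listed (log2 fold change −0.37, called lower). With the PH libraries averaged, the calls of LMOD1 (adjusted p = 0.108 from limma), CNN1 (0.0769) and SRSF1 (0.0652) were lost. With the median of ratios that of LMOD1 was lost (log2 fold change 0.24, adjusted p = 0.0931 from limma). The sums of 5 listed smooth muscle and pericyte markers (4 called higher, 1 lower) were 115 to 150 in CO and 248 to 256 in PH Cfib. The 3 listed fibroblast markers were all called higher, with sums of 1885 to 2547 and 6044 to 6351. Of 3 listed macrophage markers 2 were called higher and 1 lower (sums of 7.76 to 11.0 and 7.82 to 8.51), C1QA being at 0 in every CO library. No cardiomyocyte, endothelial or erythrocyte marker was listed. Averaging the PH libraries also ended the marker calls of TCF21, CD68 and CNN1. The part of these markers in the lower TPM4 value was not tested. Beside the −0.35 of TPM4 in PH Cfib stands the 1.70 of Tpm4 in PH-CM ARVM, from another species, table and contrast, and their difference was not tested.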

How the data were processed

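RNA of 6 ARVM and 6 Cfib libraries was ribosome-depleted and sequenced. Per the paper's methods and the submitters' processing notes, the authors aligned reads to rn6 (rat) or bosTau8 (bovine) with HISAT2 and StringTie, normalized counts with DESeq2, and kept genes with a value above 1 in a condition and p under 0.05. Versions and annotation are not given in the sources used here. The deposited ARVM signal is the read count divided by 1 size factor per library (0.632 to 1.32), and 100% of values were whole reads within 0.01 reads, giving 12122463 to 18842171 reads on listed genes. The smallest value of PH-CM ARVM ha211 was worth 2 reads. The deposited Cfib signal is scaled by length and library, as FPKM or TPM is, although the methods describe normalized counts, and its depth is unknown.

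Here log2(value + 1) of all listed genes was compared with limma 3.58.1 in R 4.3.3 (eBayes with a trend, Benjamini-Hochberg, threshold 0.05), so fold changes are on the log2(value + 1) scale. Recovered reads were tested with edgeR 4.0.16 (quasi-likelihood) and DESeq2 1.42.0 as alternatives. Ratios were compared by exact permutation (Python 3.11.15, scipy 1.17.1). Fits were tested on simulated data. The other alternatives were the pseudocount (0.1, 10), a minimum mean (50 for ARVM, 5 for Cfib), eBayes with no trend, scaling by the median of ratios, a minimum log2 fold change of 1, each library left out, averaged PH libraries and a replicate block (Cfib). All members are named, with up to 4 called genes of largest change per list and up to 3 of the nearest genes per member. One such gene is not reported here. Members and lists were chosen with earlier results of these data known. Tpm genes are similar in sequence, and how shared reads were assigned is not given in the sources used here. Intervals and bounds from reads cover counting error only.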

Additional observations from a re-analysis of the deposited data

How the results depend on the processing

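No log2 fold change or ratio of a member changed direction under the alternatives run, and 3 calls of members were lost, that of Tpm3 once and that of TPM4 under 2 settings, given below. Of the counts of called genes, 11 moved by over 1.5 times, including those that reflect the lost calls of TPM4. Smaller moves of counts are given where they occurred. The ratios and the levels relative to markers had no call to lose. Over 15 alternatives each, the log2 fold changes in ARVM ran from −3.24 to −3.10 for Tnnc1, −4.47 to −4.25 for Tnni3, −2.43 to −2.35 for Tnnt2, −3.24 to −3.13 for Tpm1, 3.94 to 4.11 for Tpm2, 0.58 to 0.71 for Tpm3 and 1.59 to 1.81 for Tpm4. A minimum of 1 for the log2 fold change left 2 members of ARVM called higher (Tpm3 lost its call), 9 thin filament partners called higher and 7 lower, and 0 splicing factors called higher and 1 lower. In Cfib the same minimum left 0 members (TPM4 at −0.35), 0 splicing factors and 0 thin filament partners called lower, and 1 partner called higher. These losses follow from the stricter criterion itself. Averaging the PH libraries left 0 members (TPM4 at −0.35, adjusted p = 0.143 from limma) and 0 splicing factors called lower, and 1 partner called higher and 2 lower, with fewer samples in the fit. Scaling by the median of ratios also left 1 partner of Cfib called higher, and the cause was not tested. A minimum mean of 50 left 10 partners of ARVM called higher, since Tnnt3 is below it. The splicing factors called higher in ARVM went from 2 to 3 with that minimum, with eBayes without a trend and without library 4, each time by the call of Celf2.

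With a replicate block in Cfib, TPM4 kept its call, at −0.35 on the log2 scale with an adjusted p of 0.0229 (limma). The correlations of deviations of same-numbered libraries were 0.258, 0.0312 and 0.259, so the numbers were not taken as pairs. No paired analysis was possible because the groups share no replicate numbers in ARVM. Leaving out each library in turn gave −0.39 to −0.31 for TPM4. With 3 libraries a group, the exact test of a ratio cannot pass 0.05. The depth of Cfib is unknown, and genes outside the deposited tables were not analysed here.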
